A study of Mus musculus with 36 samples.

Results

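The transcripts described here come from 7 genes of the negative limb of the mammalian circadian clock: Per1, Per2, Per3, Cry1, Cry2, Ciart (listed on the array as Gm129) and Bhlhe40 (listed as Bhlhb2). Members were all probes whose gene symbol was 1 of these 7, which gave 13 probes among 45281: 2 for Per1, 3 for Per2, 1 each for Per3, Cry1 and Bhlhe40, 2 for Cry2 and 3 for Ciart. Probes of a gene are numbered from the highest mean signal, and 12 of the 13, from 6 of the 7 genes, passed the filter on dim probes. The samples were primary cortical astrocyte cultures of C57B/6 mouse pups aged P0-P2, grown in serum for 9-11 days. The labels also name cortex or hippocampus as the tissue the cultures could be derived from. Cultures received about 100 nM dexamethasone, a synthetic glucocorticoid, in the medium, or vehicle, and total RNA was taken at 8 times, 4 early (0.25, 1, 2 and 4 h) and 4 later (6, 12, 18 and 24 h). There were 36 Illumina BeadChip arrays in 16 groups, 18 arrays per treatment, with 3 arrays per group at 2 h and 4 h and 2 at the other times. The vehicle titles at 2 h, 4 h and 6 h carry a suffix whose meaning is not given, and the labels do not say whether replicates were separate cultures, so the spread behind the p-values is that between these arrays and may be technical.

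In the clock, the activators BMAL1 (gene Arntl) and CLOCK or NPAS2 bind E-box elements and drive the Per and Cry genes, whose proteins enter the nucleus and inhibit that same activator pair. CIART (CHRONO) and BHLHE40 (DEC1) are further repressors of E-box transcription, themselves driven through E-boxes. Glucocorticoids are known to set the phase of peripheral clocks, and Per1 is a classical direct target of the glucocorticoid receptor, while a pulse of dexamethasone is widely used to synchronise the clocks of cultured cells.

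All values are log2 intensities after background correction with an offset, which compresses the folds of dim probes. Differences are dexamethasone minus vehicle on the same scale, with the standard error (SE) of the limma fit. A probe is called at a Benjamini-Hochberg adjusted p under 0.05 among the 30128 probes that passed the filter. Signal below 5.80 is not above background. The treatment itself was visible in the receptor targets Fkbp5 (average difference 3.22, SE 0.08) and Tsc22d3 (2.14, SE 0.07). Replicate arrays correlated at 0.956 or more within a group, and all 12 astrocyte markers were on the array, 10 of them above background on all 36 arrays. The summed intensity of 14 microglial markers, 11 of them above background on all arrays, lay between 19441 and 27146 at 0.25 h and 1 h under either treatment, between 4398 and 7280 at 2 h to 6 h, and between 7269 and 11169 at 18 h and 24 h. At 12 h it was 4309 and 5232 with dexamethasone, but 20991 on vehicle replicate 1 against 4683 on vehicle replicate 2. The summed intensity of 8 fibroblast, meningeal and pericyte markers was higher with dexamethasone from 4 h onward, at 14270 to 15151 against 10814 to 12225 at 4 h, 14588 to 14904 against 9070 to 10490 at 6 h, 21882 to 24506 against 8977 to 13371 at 12 h, 26930 to 28089 against 12582 to 13631 at 18 h, and 22540 to 26798 against 11636 to 13595 at 24 h. Of these 8, Ogn dominated the sum (mean 11540, the next being Col1a2 at 835), 6 were above background on all arrays, and Lum and Rgs5 were so on none. Of the 6 tested, none was called at 4 h, and 1 was called higher at each of 6 h, 12 h, 18 h and 24 h. The sum thus mainly follows 1 gene. The sum of 3 ependymal markers, all above background on all arrays, was lower with dexamethasone at the late times, at 4146 to 5653 against 7020 to 11172 at 12 h, 8022 to 8635 against 9829 to 10334 at 18 h, and 6866 to 8442 against 9413 to 9568 at 24 h. At 12 h the sum of 12 oligodendrocyte lineage markers, 5 of them above background on all arrays, was 26837 to 30985 against 35507 to 39416. This sum was also lower at 6 h, at 25270 to 27189 against 29109 to 29155. Olig1 dominated it (mean 29500), and 1 of the 11 tested was called lower at 12 h. The astrocyte sum was lower with dexamethasone at 1 h (120598 to 124609 against 126807 to 146808). It was higher at 18 h (119220 to 120986 against 103381 to 106055) and 24 h (114186 to 120803 against 101105 to 109445). The sum of 8 neuronal markers was lower at 1 h, 6 h and 18 h (3615 to 3655 against 4030 to 4342 at 18 h). The part of other cells in the results was not tested, and in such bulk RNA fewer cells of a type and less RNA per cell cannot be told apart.

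**Figure D1:**
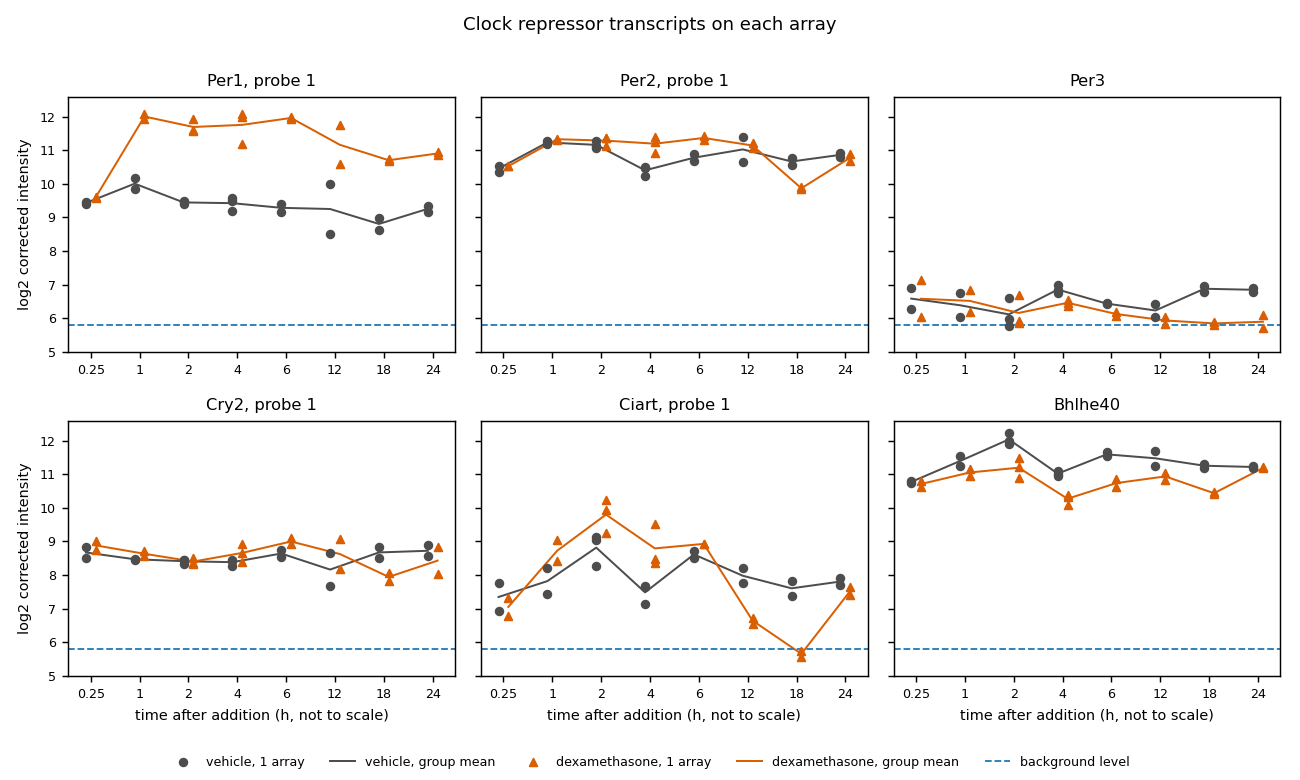
Log2 corrected intensity of the brightest probe of the 6 tested genes on each of the 36 arrays (points: vehicle circles, dexamethasone triangles) against time in hours, with lines through group means and a dashed line at the background level of 5.80. Per1 lies close to vehicle at 0.25 h and well above it from 1 h onward. Ciart lies above vehicle at 1 h to 6 h and at the background level at 18 h, and Bhlhe40 lies below vehicle from 1 h to 18 h.

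Averaged over the 8 times with equal weight, Per1 rose, Bhlhe40 and Per3 fell, and Per2, Cry2 and Ciart did not pass the test. In number, 4 of the 12 tested probes were called (2 higher, 2 lower), where 10.0% of all tested probes were called (4.63% higher and 5.40% lower). The members' median difference was -0.01, as was that of all probes. The average hides most of what happened to Per2 and Ciart, whose differences changed sign between 4 h and 18 h. By time, called member probes numbered 0 of 12 at 0.25 h (0% of all probes), 2 at 1 h (0.0498%), 3 at 2 h (0.607%), 5 at 4 h (1.98%), 3 at 6 h (1.75%), 4 at 12 h (4.54%), 7 at 18 h (3.04%) and 2 at 24 h (3.31%). At 0.25 h no probe of the array was called, while 307 had an unadjusted p under 0.05.

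Per1 encodes a PERIOD protein, the partner of the cryptochromes in the repressor complex. Its signal with vehicle on probe 1 was 9.45 and 9.41 at 0.25 h, 10.17 and 9.85 at 1 h, 9.47, 9.49 and 9.39 at 2 h, and 9.50, 9.57 and 9.20 at 4 h. Later vehicle arrays read 9.40 and 9.17 at 6 h, 10.01 and 8.49 at 12 h, 8.63 and 8.98 at 18 h, and 9.17 and 9.35 at 24 h. With dexamethasone the arrays read 9.62 and 9.58 at 0.25 h, 12.08 and 11.94 at 1 h, 11.59, 11.58 and 11.92 at 2 h, 12.10, 11.99 and 11.19 at 4 h, 12.01 and 11.92 at 6 h, 11.75 and 10.58 at 12 h, 10.68 and 10.73 at 18 h, and 10.95 and 10.86 at 24 h. From 1 h onward every dexamethasone array lay above every vehicle array, the lowest being 10.58 against a highest vehicle value of 10.17. At 0.25 h the arrays were close together but did not overlap, dexamethasone being the higher on probe 1 (9.60 against 9.43) and the lower on probe 2 (7.95 against 8.08). Non-overlap held for 16.7% of all probes at 0.25 h, 18.3% at 1 h, 5.37% at 2 h and 13.8% at 4 h. At 6 h, 12 h, 18 h and 24 h these shares were 50.1%, 31.4%, 55.1% and 43.9%.

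Per1 was therefore the member with a sustained rise. Probe 1 differed by 0.17 (SE 0.35) at 0.25 h, which was not called, then by 2.00 at 1 h, 2.25 at 2 h, 2.33 at 4 h, 2.68 (SE 0.35, 6.40-fold, limma adjusted p = 1.8e-05) at 6 h, 1.91 at 12 h, 1.90 at 18 h and 1.65 (SE 0.35, 3.14-fold, adjusted p = 0.0043) at 24 h. All 7 times from 1 h to 24 h were called on both probes. Averaged over the 8 times, the rise was 1.86 (SE 0.12, 3.63-fold, limma adjusted p = 7.7e-12) on probe 1 and 1.74 (SE 0.11, adjusted p = 3.1e-12) on probe 2, and the probes correlated at 0.988 over the 36 arrays. The fit called 15 probes at 1 h, both Per1 probes among them (probe 1 adjusted p = 0.014, probe 2 adjusted p = 0.01). That early call rests on all 4 arrays: with any 1 of them left out the difference of probe 1 was 1.84 to 2.16 and the adjusted p 0.16 to 0.43. At 24 h the call of probe 1 needed replicate 1 of each treatment: the difference was 1.60 (adjusted p = 0.054) without the dexamethasone array and 1.56 (adjusted p = 0.071) without the vehicle array.

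The level of Per1 within dexamethasone cultures was highest at 1 h (12.01) and 6 h (11.97) and lowest at 0.25 h (9.60), a 5.32-fold range, and neighbouring times in the order from 1 h down to 24 h overlapped. In vehicle cultures the highest mean was at 1 h (10.01) and the lowest at 18 h (8.81). At 12 h the replicates stood far apart in both treatments, 10.01 and 8.49 with vehicle and 11.75 and 10.58 with dexamethasone. Replicate 1 was the higher in each, with microglial sums of 20991 with vehicle and 5232 with dexamethasone. Without vehicle replicate 1 the 12 h difference was 2.67 rather than 1.91, and without vehicle replicate 2 it was 1.16. Over the 4 fits without 1 of the 12 h arrays it ran from 1.16 to 2.67. Such a fit leaves 1 array in a group and the replicate numbers unbalanced. Same-numbered arrays deviated together at 12 h (correlation 0.564), and these fits leave that pairing out. Within each replicate number dexamethasone lay above vehicle, at 11.75 against 10.01 and 10.58 against 8.49. The arrays of 12 h fitted alone, also without pairing, did not call the difference (limma adjusted p = 0.79). Of 10 alternative settings, 9 kept the 12 h call, with differences of 1.85 to 1.91 over all 10.

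Per2, a second PERIOD protein and a core scaffold of the repressor complex, showed a different course. Its probe 1 was not called up to 2 h, was called above vehicle at 4 h and was called below vehicle at 18 h. From 2 h to 4 h its vehicle mean went from 11.16 to 10.40, its lowest, while the dexamethasone mean went from 11.29 to 11.20. Vehicle titles at both times carry the unexplained suffix. On probe 1 the 4 h arrays read 11.26, 10.93 and 11.41 with dexamethasone and 10.48, 10.24 and 10.50 with vehicle. At 6 h they read 11.31 and 11.42 against 10.67 and 10.89. At 18 h they read 9.84 and 9.90 against 10.57 and 10.76. The treatments did not overlap at any of these 3 times, dexamethasone being the higher at 4 h and 6 h and the lower at 18 h. Non-overlap held for 13.8% of all probes at 4 h, 50.1% at 6 h and 55.1% at 18 h.

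The 4 h difference was 0.79 (SE 0.16, 1.73-fold, limma adjusted p = 0.003) and that at 18 h was -0.80 (SE 0.19, 1.74-fold lower, adjusted p = 0.015). The 6 h difference of 0.59 (SE 0.19) did not pass (adjusted p = 0.18). At the other times probe 1 differed by -0.08 to 0.13 (none called). Probe 2, which correlated with probe 1 at 0.927 over the 36 arrays, gave 0.67 (SE 0.19, adjusted p = 0.071) at 4 h, 0.62 (SE 0.23, adjusted p = 0.33) at 6 h and -0.82 (SE 0.23, adjusted p = 0.053) at 18 h, none of them called. With replicate numbers paired, the 4 h value of probe 2 was called (adjusted p = 0.0044). Its 18 h value was called under 7 of 9 alternative settings (-0.82 to -0.79, adjusted p from 9.5e-06 with array weights to 0.07 with no filter), and in none of the 4 fits without 1 of the 18 h arrays (adjusted p 0.19 to 0.41). The third Per2 probe was above background on 9 of 36 arrays, and its correlation with probe 1 was 0.05. It gave no called difference. The 18 h call of probe 1 was lost when any of its 4 arrays was left out (-0.89 to -0.71), whereas the 4 h call held without each of its 6 arrays. The 4 h call was lost under 1 of 10 alternative settings, with the 4 h arrays fitted alone (limma adjusted p = 0.051).

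Averaged over the times, Per2 differed by 0.11 (95% interval -0.02 to 0.25, adjusted p = 0.37) on probe 1. The response itself differed between times by the moderated F-test with 7 degrees of freedom (F = 6.95, adjusted p = 0.0094), which called 5 of the 12 member probes and 2.17% of all probes. The late response (12, 18 and 24 h) minus the early response (1, 2 and 4 h) was -0.59 (SE 0.15, adjusted p = 0.018). Probe 2 ran the same way without passing (F = 4.42, adjusted p = 0.098, and -0.52, adjusted p = 0.13). The F-test call of probe 1 rested on 2 of the 18 h arrays: F was 5.30 (adjusted p = 0.052) without dexamethasone replicate 1 and 5.10 (adjusted p = 0.064) without vehicle replicate 2.

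Per3, the third PERIOD gene, gave a dim signal, above background on 33 of 36 arrays. With vehicle its arrays ranged from 5.77 to 6.99, and with dexamethasone from 5.70 to 7.13. At 18 h they read 5.90 and 5.79 with dexamethasone against 6.79 and 6.96 with vehicle, and at 24 h 6.08 and 5.70 against 6.78 and 6.91. The treatments were apart at both late times, with dexamethasone arrays near the background level. Such non-overlap held for 55.1% of all probes at 18 h and 43.9% at 24 h.

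Per3 fell on average by 0.35 on the log2 scale (SE 0.11, 1.28-fold lower, limma adjusted p = 0.04), and was called at none of the 8 times. Its differences were between -0.005 and 0.13 at 0.25 h to 2 h, between -0.39 and -0.30 at 4 h to 12 h, -1.03 (SE 0.33, adjusted p = 0.1) at 18 h and -0.95 (SE 0.33, adjusted p = 0.14) at 24 h. The average call was lost in 23 of the 36 fits that left out 1 array (-0.42 to -0.28, adjusted p 0.0064 to 0.086) and under 2 other settings: no filter gave an adjusted p of 0.051, and leaving out the arrays of 12 h gave -0.36 (adjusted p = 0.068). Over the 10 settings tried besides leaving out single arrays, the average ran from -0.49 to -0.25. The promoter window of Per3 (RefSeq, GRCm38.p6, chr4:151044616-151044915, minus strand) is printed because it holds 2 D-boxes, the element bound by the output factor DBP. A link between DBP and the Per3 values was not tested. The 300 bases run 5′ to 3′ on the gene's strand from 250 before to 50 after the annotated start, and capitals mark the D-boxes (TTANNTAA, found in 6% of the 32851 promoters of the table), which begin 205 and 158 bases before the start.
Per3 promoter: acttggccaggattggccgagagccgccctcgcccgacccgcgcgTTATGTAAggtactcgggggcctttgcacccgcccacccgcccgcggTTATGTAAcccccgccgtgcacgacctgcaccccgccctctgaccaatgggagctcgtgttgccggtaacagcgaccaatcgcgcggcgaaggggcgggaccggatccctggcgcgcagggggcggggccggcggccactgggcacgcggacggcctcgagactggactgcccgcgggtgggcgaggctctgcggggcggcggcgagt

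The cryptochromes, which give the PER-CRY complex most of its repressive strength, gave little. The only Cry1 probe was not above background on any of the 36 arrays, with intensities of 53.9 to 81 against a level of 90.3, and was not tested. Cry2 was above background on all arrays with its probe 1, and its second probe on 2 arrays. Cry2 read 7.82 and 8.06 with dexamethasone against 8.51 and 8.83 with vehicle at 18 h. The arrays did not overlap there, which held for 55.1% of all probes. This difference of -0.73 (SE 0.28, limma adjusted p = 0.27) did not pass, and no other time did, with differences from -0.29 at 24 h to 0.46 at 12 h. The average was 0.05 (95% interval -0.14 to 0.25, adjusted p = 0.86).

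Ciart, which encodes a repressor that binds BMAL1, had the widest swing of the members within dexamethasone cultures. On probe 1 the dexamethasone arrays read 7.31 and 6.79 at 0.25 h, 8.42 and 9.03 at 1 h, 9.93, 10.23 and 9.24 at 2 h, 8.47, 8.37 and 9.53 at 4 h, 8.92 and 8.93 at 6 h, 6.73 and 6.55 at 12 h, 5.56 and 5.74 at 18 h, and 7.66 and 7.39 at 24 h. The vehicle arrays read 7.76 and 6.92 at 0.25 h, 7.42 and 8.21 at 1 h, 9.03, 9.15 and 8.27 at 2 h, 7.13, 7.66 and 7.65 at 4 h, 8.71 and 8.51 at 6 h, 8.21 and 7.75 at 12 h, 7.38 and 7.82 at 18 h, and 7.90 and 7.71 at 24 h. Dexamethasone arrays were the higher ones at 1 h, 2 h, 4 h and 6 h and the lower ones at 12 h, 18 h and 24 h, without overlap at these 7 times. Non-overlap by itself was common: it held for 16.7% of all probes at 0.25 h, 18.3% at 1 h, 5.37% at 2 h, 13.8% at 4 h, 50.1% at 6 h, 31.4% at 12 h, 55.1% at 18 h and 43.9% at 24 h.

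The signal of Ciart with dexamethasone was at least 16.02-fold lower at 18 h than at 2 h on probe 1, the mean of 9.80 at 2 h being set against the background level because neither 18 h array, at a mean of 5.65, was above it. Probes 2 and 3 also had their highest mean at 2 h (9.32 and 7.65) and their lowest at 18 h (5.48 and 4.91). With vehicle the range of probe 1 was 2.77-fold. At 18 h neither dexamethasone array was above background on any of the 3 probes. The measured ranges of probes 1, 2 and 3 therefore end at the background level. The plot of the 3 Ciart probes shows that this course was shared by all of them, with correlations of 0.826 to 0.904 over the 36 arrays.

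**Figure D2:**
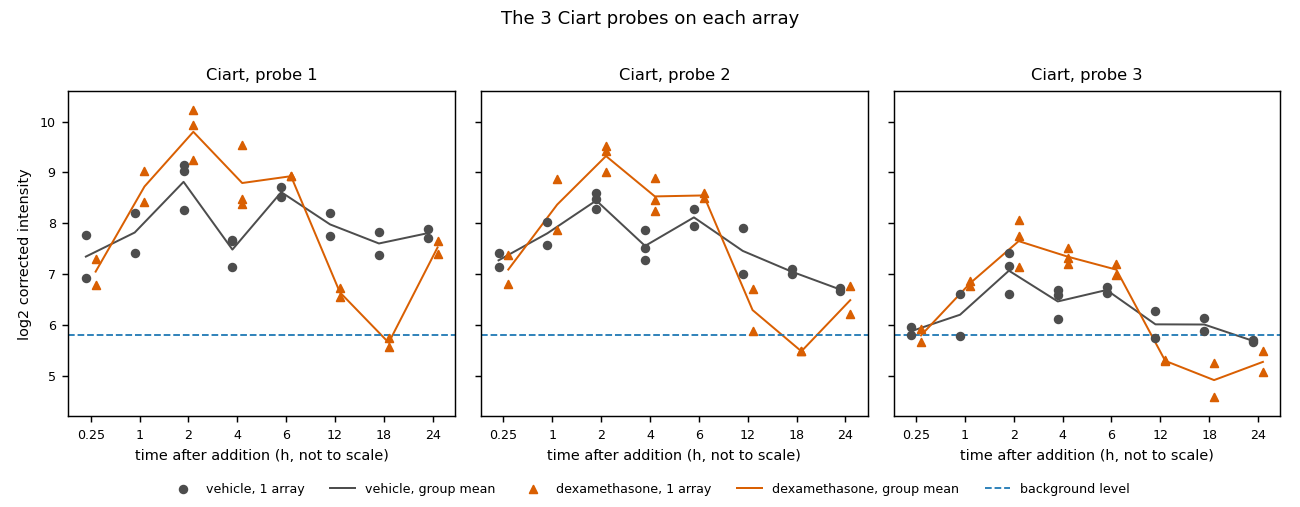
Log2 corrected intensity of the 3 Ciart probes on each array against time in hours, with vehicle arrays as circles, dexamethasone arrays as triangles, lines through group means and a dashed background level at 5.80. All 3 probes peak at 2 h with dexamethasone (9.80, 9.32 and 7.65) and lie under the background level at 18 h.

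Against vehicle, Ciart rose at 4 h by 1.31 on probe 1 (SE 0.31, 2.48-fold, limma adjusted p = 0.018) and fell at 12 h by 1.34 (SE 0.38, 2.52-fold lower, adjusted p = 0.042). At 18 h it was at least 3.49-fold lower on probe 1 (adjusted p = 0.0023), at least 2.38-fold on probe 2 (adjusted p = 0.005) and at least 1.16-fold on probe 3 (adjusted p = 0.042). These bounds set the vehicle mean against the background level. Probe 2 was also called lower at 12 h (-1.16, SE 0.33, adjusted p = 0.04). Probes 2 and 3 gave 0.97 and 0.88 at 4 h, neither called (adjusted p = 0.062 and 0.063). With replicate numbers paired, they were called at 4 h (adjusted p = 0.00013 and 0.0023), and the 2 h differences of 0.99 on probe 1 and 0.87 on probe 2, which had not passed (adjusted p = 0.32 and 0.28), were called as well (both 0.0011). At 24 h no Ciart probe differed by a called amount (-0.41 to -0.21).

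The late minus early response of Ciart was -2.26 (SE 0.29, limma adjusted p = 1.5e-05) on probe 1, -1.79 (adjusted p = 5.2e-05) on probe 2 and -1.43 (adjusted p = 0.00023) on probe 3. With values under background raised to that level these were -2.21, -1.68 and -0.84, all still called. This comparison called 4 of the 12 member probes, all lower, the 3 of Ciart and probe 1 of Per2, and 3.95% of all probes (2.39% lower). The response F-test gave 10.52, 9.12 and 6.40 (adjusted p = 0.0007, 0.0018 and 0.015). Averaged over the 8 times, the opposite early and late differences left -0.04 (95% interval -0.31 to 0.22, adjusted p = 0.93) on probe 1. Single-time calls were less firm. On probe 1 the 4 h value was 0.94 (adjusted p = 0.22) without dexamethasone replicate 3 and 1.14 (adjusted p = 0.14) without vehicle replicate 1, the 4 h arrays fitted alone gave 1.31 (adjusted p = 0.055), the 18 h value was -1.73 (adjusted p = 0.07) without vehicle replicate 2, and the 12 h call needed all of its 4 arrays (-1.57 to -1.10, adjusted p 0.052 to 0.24 with any 1 left out). The 12 h call was also lost under 6 of 9 other settings on probe 1 (-1.34 to -1.09) and 5 of 8 on probe 2 (-1.16 to -0.89). On probe 2 the 12 h value was -0.75 (adjusted p = 0.48) without dexamethasone replicate 2 and -0.71 (adjusted p = 0.39) without vehicle replicate 1. Its 18 h call was lost in 3 of 4 fits without 1 array (-1.61 to -1.53, adjusted p 0.048 to 0.07), all but that without vehicle replicate 2. That of probe 3 was lost in 3 of 4 (-1.43 to -0.76, adjusted p 0.039 to 0.73), all but that without dexamethasone replicate 1, and under 4 of 8 other settings, where it was as small as -0.21 (adjusted p = 1) with values raised to background. The 12 h value of probe 1 was -1.10 (adjusted p = 0.23) without vehicle replicate 1, the array with the high microglial sum.

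The promoter windows of Ciart and Per1 are printed to show how these 2 genes, whose differences from vehicle had opposite signs at 12 h and 18 h, differ in the letters near their start sites. That of Ciart (RefSeq, GRCm38.p6, chr3:95882179-95882478, minus strand) holds 3 E-boxes (CACGTG, in capitals), beginning 116, 58 and 44 bases before the start, where 7.15% of the 32851 promoters hold at least 1. The first Per1 window (chr11:69098699-69098998, plus strand) has 1 E-box, 166 bases before the start, and 1 TGACG, the core of the cAMP response element, 246 bases before it. The second (chr11:69099902-69100201, plus strand), at a downstream Per1 start, has no E-box and 1 TGACG, 132 bases before the start. TGACG is found in 20.8% of promoters. All windows are from the same build, run 5′ to 3′ on the gene's strand and span 250 bases before to 50 after the start, and capitals in the Per1 windows mark both motifs.
Ciart promoter: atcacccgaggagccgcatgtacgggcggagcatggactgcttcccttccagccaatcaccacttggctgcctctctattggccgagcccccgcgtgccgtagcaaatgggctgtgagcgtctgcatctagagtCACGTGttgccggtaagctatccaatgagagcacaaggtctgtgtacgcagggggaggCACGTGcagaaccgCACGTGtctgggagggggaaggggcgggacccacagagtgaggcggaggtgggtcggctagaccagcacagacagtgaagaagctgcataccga
Per1 promoter 1: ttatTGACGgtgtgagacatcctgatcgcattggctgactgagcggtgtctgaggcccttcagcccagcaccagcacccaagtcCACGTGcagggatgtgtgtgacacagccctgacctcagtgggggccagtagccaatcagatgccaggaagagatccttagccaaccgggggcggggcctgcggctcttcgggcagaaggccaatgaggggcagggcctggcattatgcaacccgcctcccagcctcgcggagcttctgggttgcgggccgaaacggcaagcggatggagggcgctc
Per1 promoter 2: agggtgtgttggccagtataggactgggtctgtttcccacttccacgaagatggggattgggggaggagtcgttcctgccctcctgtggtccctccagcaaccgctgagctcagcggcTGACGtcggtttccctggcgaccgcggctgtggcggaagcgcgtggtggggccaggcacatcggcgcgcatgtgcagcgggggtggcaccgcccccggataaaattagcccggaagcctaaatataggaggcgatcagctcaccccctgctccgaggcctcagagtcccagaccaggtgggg

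In all, 5 of the 7 members had windows in the RefSeq table. Per2 and Bhlhe40 are named only. The window of Cry1 held 1 E-box and 1 E'-box (CACGTT, in 4.68% of promoters), and that of Cry2 1 E'-box. Both also held 1 TGACG, as the Per1 windows did, beginning 8 bases before the start in Cry1 and 209 in Cry2. Both strands were searched. None of these windows held the full palindromic glucocorticoid response element (in 0.475% of promoters), the arm AGAACA (19%), the full cAMP response element TGACGTCA (1.79%) or the ROR element TAGGTCA (2.61%). Matches and their absence describe the letters of these 300 bases only, and no binding data were used here.

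Bhlhe40, a basic helix-loop-helix repressor that competes at E-boxes and also responds to many acute stimuli, was the member that stayed below vehicle. Its dexamethasone arrays at 2 h read 11.22, 11.49 and 10.89 against 11.91, 12.22 and 11.99 with vehicle, and at 4 h 10.33, 10.09 and 10.39 against 11.11, 11.01 and 10.94. At 6 h they read 10.61 and 10.86 against 11.54 and 11.65, and at 18 h 10.47 and 10.40 against 11.20 and 11.31. At 24 h they read 11.17 and 11.20 against 11.20 and 11.24. The treatments did not overlap from 1 h to 18 h and overlapped at 0.25 h and 24 h. Non-overlap held for 18.3% of all probes at 1 h, 5.37% at 2 h, 13.8% at 4 h, 50.1% at 6 h, 31.4% at 12 h and 55.1% at 18 h.

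The average fall of Bhlhe40 was 0.53 on the log2 scale (SE 0.06, 1.44-fold lower, limma adjusted p = 7.9e-07). Its difference was below 0 at all 8 times and called at 4 of them: -0.84 (SE 0.15, adjusted p = 0.0027) at 2 h, -0.75 (SE 0.15, adjusted p = 0.0036) at 4 h, -0.86 (SE 0.18, adjusted p = 0.009) at 6 h and -0.82 (SE 0.18, adjusted p = 0.009) at 18 h. It was -0.06 at 0.25 h, -0.34 at 1 h, -0.54 (adjusted p = 0.11) at 12 h and -0.03 at 24 h. The 2 h and 4 h calls held with each array left out. The 4 h call also held under all 10 alternative settings. The 2 h call was lost in 1 of 10, with the 2 h arrays fitted alone (limma adjusted p = 0.66), and its difference was -0.88 to -0.83 over these settings. The 6 h call was lost in 3 of 4 such fits (-0.98 to -0.73, adjusted p 0.033 to 0.24), all but the one without dexamethasone replicate 2, and the 18 h call in all 4 (-0.87 to -0.77, adjusted p 0.059 to 0.13). The F-test for a difference in response between times did not pass (3.82, adjusted p = 0.17).

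**Figure D3:**
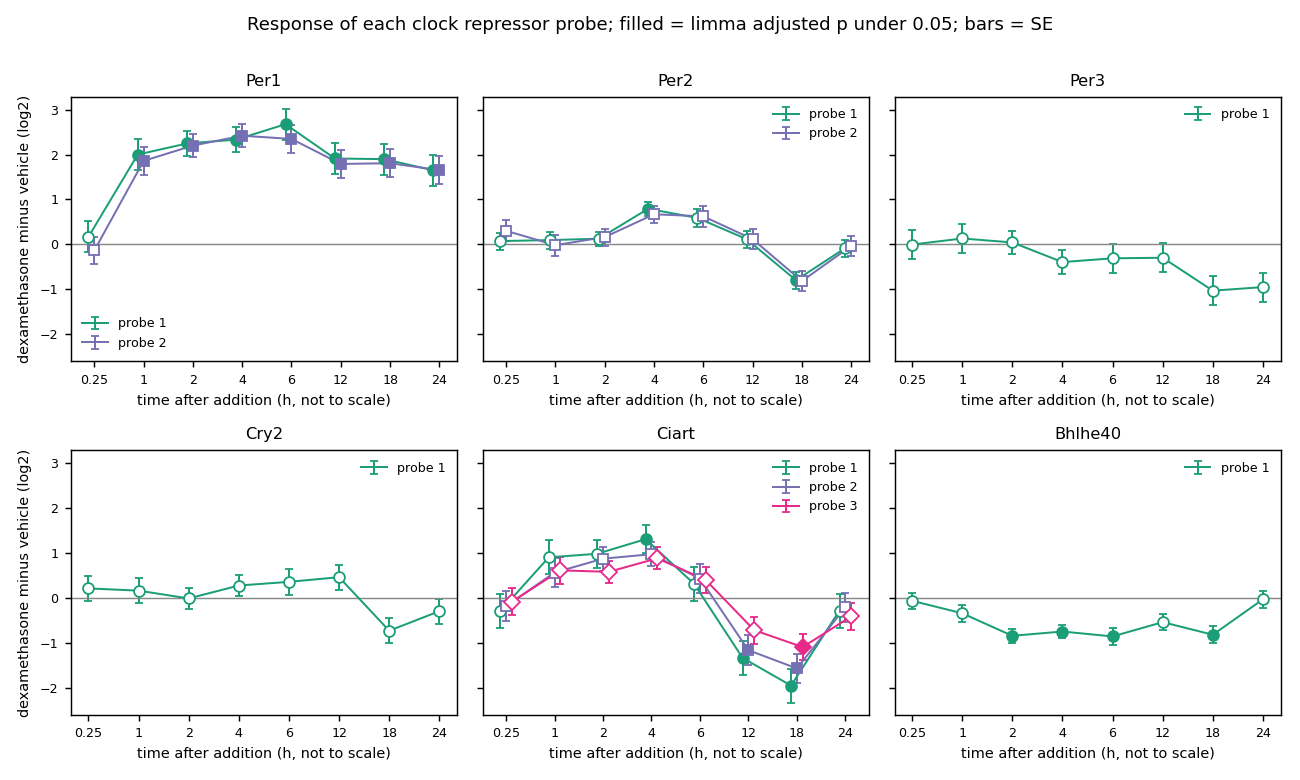
Dexamethasone minus vehicle (log2) with SE bars for each Per1, Ciart, Per3 and Bhlhe40 probe, probes 1 and 2 of Per2 and probe 1 of Cry2, against time in hours, with filled symbols where the limma adjusted p was under 0.05. Per1 lies near 2 from 1 h onward, Per2 and Ciart cross from above 0 at 4 h to below 0 at 18 h, and Bhlhe40 stays below 0.

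The Per1 difference from vehicle, with its sign, was set directly against that of each other member on the 36 arrays. The test was a two-sided permutation test with 100000 resamples of treatment labels within each time. The Per1 difference exceeded that of Per2 by 1.75, of Per3 by 2.21, of Cry2 by 1.81, of Ciart by 1.91 and of Bhlhe40 by 2.39, each with an adjusted p of 1e-05 over the 5 comparisons, the smallest these resamples can give. With sign kept, the Per1 difference was the higher at 8 of 8 times against each of these, with the exception of Cry2 (7 of 8). A fall counts here as lower whatever its size. At 18 h the difference was -1.95 for Ciart probe 1 and 1.90 for Per1 probe 1. The average of Ciart was near 0 because its early and late differences had opposite signs, so these comparisons do not rank the members by size of response.

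In vehicle cultures the members also moved with time. The F-test across the 8 vehicle groups called 5 of the 12 member probes and 12.4% of all probes: Bhlhe40 (F = 11.10, limma adjusted p = 0.00045), Per2 probe 1 (6.34, adjusted p = 0.0071) and Ciart probes 1 to 3 (4.78, 6.96 and 5.77, adjusted p = 0.023, 0.0047 and 0.011). Bhlhe40 went from 12.04 at 2 h to 11.02 at 4 h and 11.60 at 6 h, and Ciart probe 1 from 8.81 to 7.48 and 8.61. Per2 probe 1 went from 11.16 to 10.40 and 10.78. All of these thus dipped at 4 h. Without the 2 h, 4 h and 6 h arrays, whose vehicle titles carry the suffix, no member gene was called over the vehicle groups, and 26 probes of the array were. In dexamethasone cultures 8 of 12 member probes were called across time (26.5% of all probes), those of Per1, probes 1 and 2 of Per2, Bhlhe40 and those of Ciart, the highest values being 39.22 for Ciart probe 2 and 30.98 for Ciart probe 1. Vehicle Ciart signal was lower at 12, 18 and 24 h than at 2, 4 and 6 h on probes 2 (-0.97, SE 0.18, adjusted p = 0.00082) and 3 (-0.84, SE 0.16, adjusted p = 0.0013). Of all probes 13.9% were called (7.29% lower), and probe 1 did not pass (-0.51, SE 0.21, adjusted p = 0.1). Only the 2 h, 4 h and 6 h vehicle titles carry the suffix, so time and suffix cannot be told apart here. At 0.25 h and 1 h, without the suffix, vehicle means were 7.27 and 7.80 on probe 2 and 5.88 and 6.20 on probe 3. At 12 h, 18 h and 24 h they were 7.46, 7.05 and 6.69 on probe 2 and 6.01, 6.01 and 5.68 on probe 3.

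Among other clock genes, 12 activators and output factors were tested. On the average 3 were called higher and 3 lower (4.63% and 5.40% of all probes), with a list median of 0.17 beside -0.01 for all probes. The nuclear receptor Rora (0.55, SE 0.11), Npas2 (0.31, SE 0.09) and the deubiquitinase Usp2 (0.37, SE 0.12, adjusted p = 0.049) rose. The output factor Dbp (-1.12, SE 0.06, adjusted p = 1e-13) and the REV-ERB repressors Nr1d2 (-0.56, SE 0.11) and Nr1d1 (-0.33, SE 0.10, adjusted p = 0.042) fell. Arntl did not pass on the average (0.20, adjusted p = 0.064). At 4 h, when Per2 and Ciart were called higher, and at 6 h, 1 of the 12 was called, Dbp both times (-1.14 and -1.12). Of all probes 1.98% and 1.75% were called at these times.

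At 12 h and 18 h, when Ciart was low, 4 of the 12 were called each time, beside 4.54% and 3.04% of all probes. At 18 h Dbp had fallen by 3.19 (SE 0.17, adjusted p = 1.6e-12) and Nr1d2 by 2.37 (SE 0.33, adjusted p = 3.2e-05), while Arntl had risen by 1.65 (SE 0.20, adjusted p = 6.9e-06) and Npas2 was at least 1.95-fold higher (adjusted p = 5.4e-05). At 12 h Dbp was at -2.40, Nr1d2 at -2.09, Nr1d1 at -1.07 (adjusted p = 0.042) and Arntl at 0.99 (adjusted p = 0.0032). At 18 h, then, Ciart, Per2, Bhlhe40, Dbp and Nr1d2 were lower and Arntl and Npas2 higher, with Per1 higher by 1.90. At 24 h Dbp alone of the 12 was called (-0.79, adjusted p = 0.0052), and of the members Per1, beside 3.31% of all probes. The microglial sum at 18 h was 7269 and 7755 with dexamethasone against 9254 and 8642 with vehicle. At 12 h and 18 h, the times of these differences, the fibroblast, meningeal and pericyte sum, dominated by Ogn, was also higher with dexamethasone (26930 to 28089 against 12582 to 13631 at 18 h). The ependymal sum was lower. The part of these cells in the differences of Per1, Per2, Per3, Ciart, Bhlhe40 and the other clock genes was not tested.

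**Figure D4:**
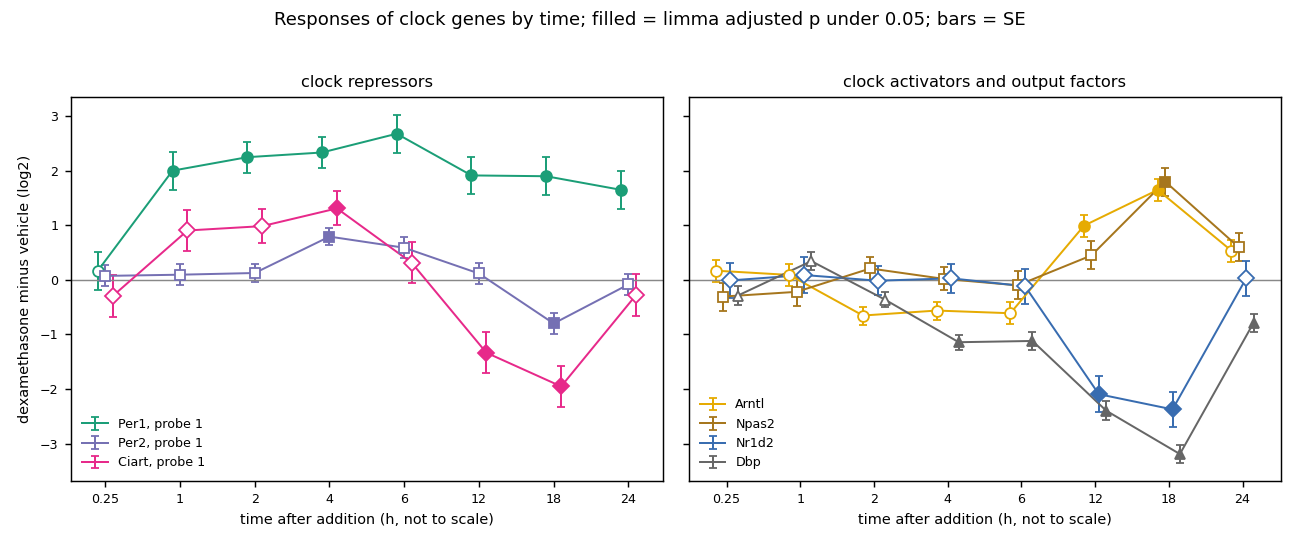
Dexamethasone minus vehicle (log2) with SE bars against time in hours for 3 repressors (left) and for 4 activators and output factors whose response differed between times (right), filled where the limma adjusted p was under 0.05. At 18 h Ciart, Per2, Dbp and Nr1d2 lie below 0, and Arntl, Npas2 and Per1 above it.

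Of 9 tested clock regulators, which modify or partner the PER and CRY proteins, 2 were called lower on the average, Timeless (-0.62, SE 0.09) and Tipin (-0.39, SE 0.05), and none higher. Both are also replication fork proteins. Of 15 immediate early genes, 1 was called higher, Egr2 (0.82, SE 0.20, adjusted p = 0.0065), and 3 lower, Ier3 (-0.48), Atf3 (-0.44) and Jun (-0.36). Among all probes 4.63% were called higher on the average and 5.40% lower. At 1 h, when Per1 was called, none of these 15 was, where 0.0498% of all probes were called.

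Over the 16 group means, the probe whose levels most resembled Per1 was that of Nfkbia, an inhibitor of NF-kappaB (Pearson r = 0.97), followed by B230312E02Rik (0.968) and A130030M01Rik (0.957), among 3180 probes with a spread of at least 0.5 between group means. The nearest to Per2 were Egr2 (0.767), Ciart (0.763) and Cstf3 (0.747), so that Per2 and Ciart were close to each other. Per3 was nearest to Ptn (0.862), Mcm3 (0.789) and Ak3l1 (0.77), Ciart to Prmt8 (0.827), Npal1 (0.819) and Uhrf1 (0.803), and Bhlhe40 to Rnf165 (0.816), Artn (0.801) and Atf3 (0.789). Between members themselves Per1 correlated with Bhlhe40 at -0.48 and with Per3 at -0.51. All these values share the same 36 arrays and their common drift with time, and are given as a description.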

How the data were processed

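The members and the gene lists were chosen with earlier results of these data known. The deposited series table gives linear intensities, which the authors had quantile normalized: apart from the 10 lowest values, sorted columns differ by at most 0.5. GenomeStudio is named, without a version, in the submitters' processing notes. A further 72 per-sample columns match no label and were not used; gene symbols were read from that table. Intensities were corrected by normexp (offset 16) and log2-transformed. The background level, 90.3 (5.80 on the log2 scale), is the 99th percentile of the lower spread around the mode (69.6), mirrored. The filter kept 30128 probes that exceeded this level on 2 or more arrays. limma 3.58.1 (R 4.3.3) fitted 16 group means over all 36 arrays (20 residual and 4.61 prior degrees of freedom), with Benjamini-Hochberg adjustment per comparison, and was tested on simulated data. Same-numbered arrays deviated together at 2 h (correlations 0.667 to 0.875) and 4 h (0.359 to 0.568), and paired values are given there where they change a call. They also did so at 0.25 h (0.825), 1 h (0.779) and 12 h (0.564), where the member differences given leave the pairing out. Pairing raised all-probe calls from 183 to 485 at 2 h and from 598 to 1684 at 4 h. Members were named by symbol, other clock genes where called on the average or the response F-test, immediate early genes as the 3 with the largest average change, and likeness as the 3 nearest probes. Jun was added after its value was seen. The number of arrays limits the precision. Alternatives were the background correction, filter, probe choice, array weights, variance model, replicate block, single times and arrays left out. Raising values to background, leaving out the 2 h to 6 h arrays and crossing the 24 h numbers were added after seeing the data. Figures used matplotlib 3.10.9 in Python 3.11.15.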

Additional observations from a re-analysis of the deposited data

Results flagged for a closer look

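Some responses differed between times by a test of that difference, the moderated F-test over the 8 times or the late (12, 18 and 24 h) minus early (1, 2 and 4 h) response, limma adjusted over all probes. By the F-test these were Per1 probe 2 (7.31, adjusted p = 0.0069), Per2 probe 1 (6.95, adjusted p = 0.0094) and Ciart probes 1 (10.52, adjusted p = 0.0007), 2 (9.12, adjusted p = 0.0018) and 3 (6.40, adjusted p = 0.015). For Per1 the smallest difference was at 0.25 h, and the call of probe 2 was lost without dexamethasone 0.25 h replicate 2 (4.86, adjusted p = 0.072) or vehicle 0.25 h replicate 1 (5.05, adjusted p = 0.062), while probe 1 did not pass (4.96, adjusted p = 0.058). The Ciart probe 3 call was lost without dexamethasone 18 h replicate 2 (5.15) or vehicle 18 h replicate 2 (5.13). The late response was below the early one for Per2 probe 1 (-0.59, adjusted p = 0.018) and for Ciart probes 1 (-2.26, adjusted p = 1.5e-05), 2 (-1.79, adjusted p = 5.2e-05) and 3 (-1.43, adjusted p = 0.00023).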

How the results depend on the processing

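Counts here are member genes called on their brightest probe. The average (3 genes) kept 2 or 3 under every setting, and the 5 permutation differences kept their direction and call. With the arrays of a time fitted alone, calls fell to 0 at 1 h (from 1), 1 at 2 h (from 2), 2 at 4 h (from 4) and 0 at 12 h (from 2), and rose to 2 at 24 h (from 1). The 12 h count was 1 with the deposited intensities in log2, offset 50, no filter, only probes above background on all arrays, array weights, or values raised to background. At 24 h it was 2 with array weights, with the replicate block and with crossed numbers. Late minus early fell to 1 of 2 with probes above background on all arrays, the probe of Ciart being left out there. With array weights the vehicle comparison of late and middle times went from 0 to 2, the response F-test from 2 to 4 and the vehicle F-test from 3 to 5. The latter was 0 without the 2 h, 4 h and 6 h arrays. The replicate block gave 5 on the response F-test. The cause was not tested for these shifts unless the setting itself removes samples or probes.

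Same-numbered arrays also deviated together at 0.25 h (correlation 0.825), 1 h (0.779) and 12 h (0.564), as at 2 h and 4 h. At 6 h (0.0245), 18 h (-0.0460) and 24 h (-0.114) the replicate numbers are not shown to pair the arrays. The block raised all-probe calls to 6565 on the average (from 3022), 47 at 1 h (from 15), 1335 at 6 h (from 527), 5048 at 12 h (from 1367), 2517 at 18 h (from 917), 3233 at 24 h (from 996), 3597 for late minus early (from 1191) and 2634 on the F-test (from 655). Crossed numbers at 24 h gave 3399.

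Leaving out 1 array gave 2 to 3 genes for the average, 0 to 0 at 1 h, 2 to 2 at 2 h, 3 to 4 at 4 h, 1 to 2 at 6 h, 1 to 2 at 12 h, 1 to 2 at 18 h (from 4), 0 to 1 at 24 h, 0 to 2 for the vehicle comparison, 1 to 3 for the response F-test, 2 to 4 for the vehicle and 4 to 5 for the dexamethasone F-test. Groups left with 1 array were assumed to vary like the others.

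No called value changed sign. Differences near 0 that did, none called, were the Ciart averages of probes 1 and 2 (0.02 and 0.04 with deposited log2 or offset 50, 0.14 and 0.13 without 12 h, and 0.01 for probe 2 with raised values), Ciart probe 3 (-0.06), Cry2 probe 2 (0.03) and Per2 probe 3 (0.06) without 0.25 h and 1 h, Per2 probe 3 with raised values (0.06), and Per3 at 0.25 h (0.01 with deposited log2 or offset 50). With 1 array left out, averages ran from -0.14 to 0.03 for Per2 probe 3, -0.01 to 0.12 for Cry2 probe 1, and -0.10 to 0.01, -0.10 to 0.03 and -0.03 to 0.07 for Ciart probes 1, 2 and 3. At 0.25 h they ran from -0.01 to 0.16 for Per2 probe 1, -0.56 to 0.55 for Per3, -0.72 to 0.12 for Ciart probe 1 and -0.16 to 0.03 for Bhlhe40. Per3 ran from -0.22 to 0.48 at 1 h and -0.23 to 0.28 at 2 h. Cry2 probe 1 ran from -0.07 to 0.02 at 2 h, -0.04 to 0.97 at 12 h and -0.69 to 0.10 at 24 h, and Per2 probe 1 from -0.25 to 0.49 at 12 h and -0.19 to 0.03 at 24 h. In the vehicle comparison Per2 probe 1 ran from -0.05 to 0.20 and Cry2 probe 1 from -0.13 to 0.21. Signal over background limits Per3, Ciart at 18 h, Cry1, probe 2 of Cry2 and probe 3 of Per2.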
